A study of Mus musculus with 6 samples.

Results

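The genes described here carry interleukin 6 (IL-6) and oncostatin M signalling. They were taken as a list of 10 symbols, Il6, Il6ra, Il6st, Lif, Lifr, Osm, Osmr, Socs3, Stat3 and Il11ra1, and found as gene probes whose RefSeq accession named one of them. All 10 had a probe, with 13 probes in total, among 20128 genes with a symbol on the array, and 8 of the 10 were bright enough to be tested. Hearts were taken from C57/B6 mice at 8 weeks of age, and RNA of each was measured on its own 1-colour Agilent array. Controls were 3 mice that carried PHD2/3 floxed alleles and no Cre (PHD2/3f/f; Cre-/-). The other 3 mice had those alleles and 1 copy of Cre (PHD2/3f/f; Cre+/-), and their hearts are here called KO-labelled. All 6 mice thus carried the floxed alleles. The labels name neither the promoter that drives Cre nor the sex of the mice, and they give both a column kit for hearts and a blood RNA kit with globin removal for the RNA. The series title asks about these hydroxylases, thyroid hormone receptor alpha and phospholamban under chronic beta-adrenergic stress. No stress treatment is named for these 6 hearts.

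Cytokines of the IL-6 family bind receptor pairs that include the shared chain gp130, the product of Il6st. IL-6 and IL-11 first bind their own receptors, encoded by Il6ra and Il11ra1. Leukaemia inhibitory factor (LIF) joins gp130 to the LIF receptor, and mouse oncostatin M mainly joins it to the oncostatin M receptor. Janus kinases on these chains phosphorylate STAT3, which enters the nucleus and switches on genes that include Socs3, an inhibitor that binds gp130 and ends the signal. In heart, the family is known for its part in cardiomyocyte growth and survival and in cardiomyocyte dedifferentiation. Immune and stromal cells are among the sources of its ligands.

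Every value below is a log2 signal relative to the 75th percentile of its array unless it is called a log2 difference, which is KO-labelled minus control. A level of 1 probe cannot be set against that of another. A gene was tested if all 3 arrays of a group, either one, had its probe well above background, and it passed at an adjusted p under 0.05 (limma, Benjamini-Hochberg over 22187 genes and unnamed probes). Signal at the 75th percentile ran from 147 to 235, 46.3% to 51.0% of probes lay well above background, and 0 were saturated. All 6 arrays lay on 1 slide in 1 scan, with the controls in one column of array positions and the KO-labelled hearts in the other, so position and group cannot be told apart. Egln1, the gene of PHD2, fell (log2 difference -1.23), whereas Egln3, the gene of PHD3, rose (1.98), so the groups are called by their labels. The labels do not say which exons are floxed, so these probes may lie outside the deleted part. The cardiomyocyte genes Myh6, Tnnt2, Tnni3, Actc1, Myl2, Mybpc3 and Ryr2 were well above background on every array. Calls across all genes depended on single hearts. They numbered 8432, but 4148 without control replicate 1, 4258 without control replicate 3 and 5543 without KO-labelled replicate 3. Over all genes tested the median log2 difference, -0.12, moved by 0.14 under cyclic loess and by 0.28 under spike-in scaling. The share of passing genes that were higher, 40.5%, became 55.0% under cyclic loess and 63.1% under spike-in scaling.

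Of the 8 tested genes, Il6 and Il6ra rose, Lifr fell, and Il6st, Osmr, Socs3, Stat3 and Il11ra1 did not pass. That is 37.5% of the tested genes, against 38% of all genes and unnamed probes tested, of which 15.4% rose and 22.6% fell. The share is near the background and is not a result about this family. It counts Il6, which entered the test only through the KO-labelled group. Across the 8 genes the median log2 difference was 0.25, against -0.12 for all genes tested. In Il6ra and Lifr the groups did not overlap, which held for 55.1% of all genes tested (22.1% higher and 33.1% lower). Lif and Osm could not be compared, because neither lay well above background on any array.

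**Figure D1:**
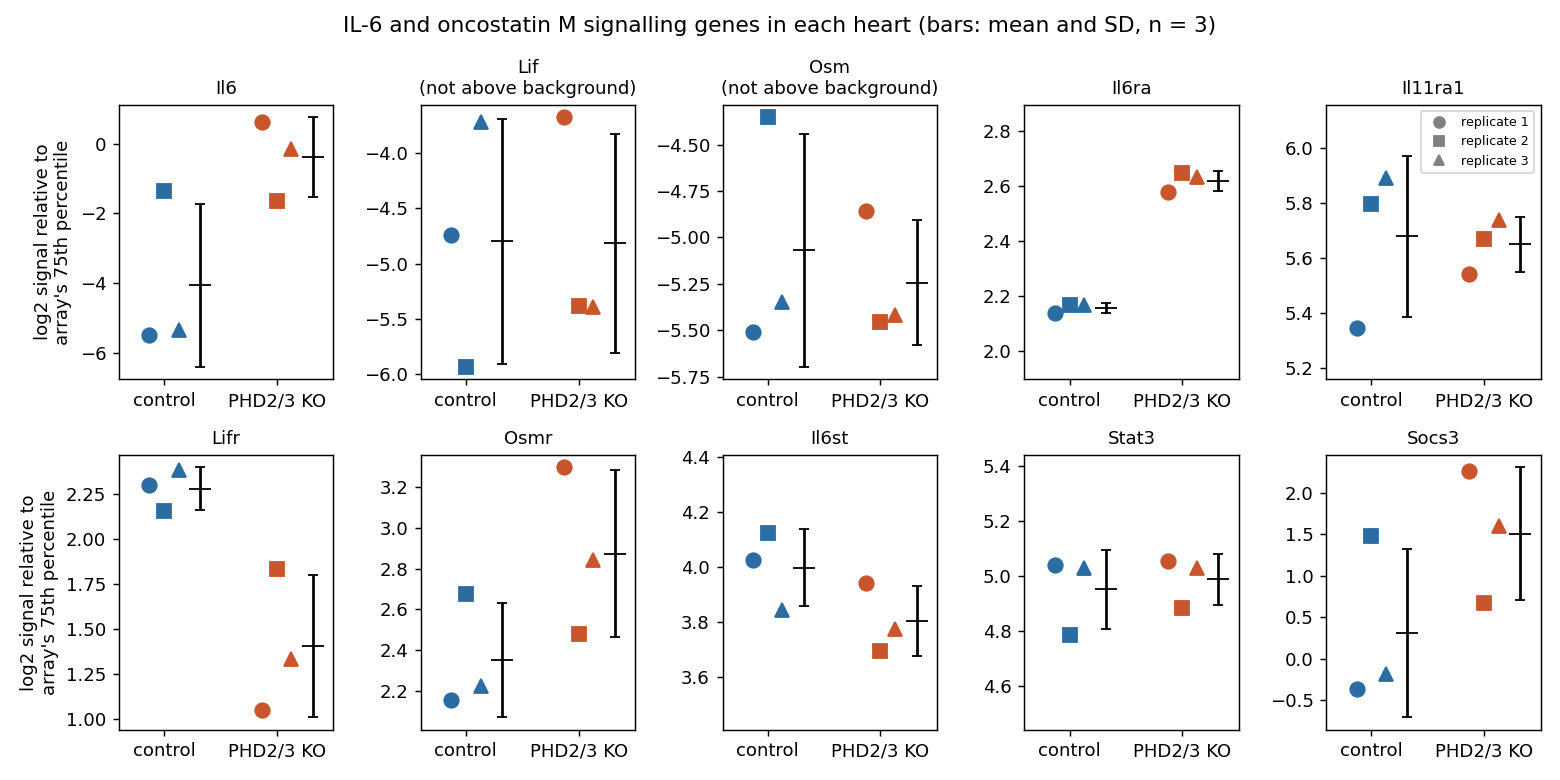
Signal in log2 units above each array's 75th percentile (vertical axis, scaled per gene) for each of the 10 genes in the 3 control and 3 KO-labelled hearts. Symbols are single hearts, and bars give the mean and SD. Il6ra and Lifr separate the groups, while in Il6, Osmr and Socs3 control replicate 2 lies among the KO-labelled hearts.

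Il6, the founding cytokine of the family, was the ligand gene that could be measured. Its signal (NM_031168) was -5.49, -1.38 and -5.35 in control replicates 1, 2 and 3, and 0.61, -1.64 and -0.14 in KO-labelled replicates 1, 2 and 3. Control replicates 1 and 3 were low, and control replicate 2 lay above KO-labelled replicate 2, so the groups overlapped. Controls averaged -4.07 ± 2.34 and KO-labelled hearts -0.39 ± 1.15 (SD, n = 3 each). That gave a log2 difference of 3.68 ± 1.17 SE (adjusted p = 0.0465). Only 1 of 3 control arrays, replicate 2, had Il6 well above background, against 3 of 3 KO-labelled arrays. The size therefore rests on signal below background. Il6 also entered the test only through the KO-labelled group, where it was higher, so its entry was tied to the direction. With the low controls raised to the lowest signal well above background on their arrays, the log2 difference was 2.37, and with normexp background correction it was 1.23 (adjusted p = 0.0372). In the deposited value table it was 1.30 and did not pass (adjusted p = 0.0891).

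The call for Il6 was narrow. It did not pass under 13 of 19 alternatives, with an adjusted p of up to 0.140. These included a threshold of 0.01 on the same fit, which its adjusted p of 0.0465 could not meet. Without control replicate 1 the log2 difference was 2.97 (adjusted p = 0.140), without control replicate 3 it was 3.04 (adjusted p = 0.138), without KO-labelled replicate 1 it was 3.18 (adjusted p = 0.119) and without KO-labelled replicate 3 it was 3.56 (adjusted p = 0.108). Without control replicate 2 it was 5.03 (adjusted p = 0.00654).

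The sequence before the Il6 start site is shown because Il6 had the largest log2 difference of the 8 genes and is a textbook target of NF-kappaB. The 250 bases upstream of the start, from RefSeq on GRCm38.p6, lie at chr5:30012864-30013113 on the plus strand. They read 5′ to 3′ as follows, with capitals for a match to the NF-kappaB-type motif, GGGA and TTCC with any 2 bases between.
Il6 upstream: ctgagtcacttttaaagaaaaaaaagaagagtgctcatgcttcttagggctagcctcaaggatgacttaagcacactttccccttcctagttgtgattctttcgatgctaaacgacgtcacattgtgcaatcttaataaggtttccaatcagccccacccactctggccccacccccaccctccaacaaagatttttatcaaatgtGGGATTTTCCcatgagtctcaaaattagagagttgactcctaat
The match, GGGATTTTCC, spans bases 44 to 35 before the start. Searched on both strands, this motif lay in 1.21% of 32851 such windows of all genes, and among 11 windows of 9 of the 10 genes it lay in that of Il6 alone. A match is a run of letters, not a measured binding site.

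The probes for Lif and Osm stayed below background in every heart. Lif (NM_008501), which encodes leukaemia inhibitory factor, read -4.74, -5.93 and -3.72 in control and -3.68, -5.38 and -5.39 in KO-labelled hearts. Osm (NM_001013365), the gene of oncostatin M, read -5.51, -4.35 and -5.35 in control and -4.86, -5.46 and -5.42 in KO-labelled hearts. Neither was well above background on any of the 6 arrays, so their order has no meaning and no fold is given. This bounds the signal of these probes and does not show that the transcripts were absent.

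Among 9 further ligand genes of the family and their partner subunits, 5 could be tested. Of these, 2 rose, Ebi3 among them, and Ctf1 and Il27 fell, which is 80% passing against 38% of all genes tested. With 5 genes this is a count and not a result about the list. Cntf did not pass, with a log2 difference of 0.29 ± 0.42 SE (adjusted p = 0.611). Ebi3, which encodes a subunit of IL-27, read -0.41, -0.39 and -0.19 in control and 1.09, 1.09 and 1.38 in KO-labelled hearts. All 3 KO-labelled hearts lay above the controls, which held for 22.1% of all genes tested. The rise was 1.52 ± 0.14 SE (adjusted p = 0.00200). Ctf1, the gene of cardiotrophin-1, a family cytokine known to act on cardiomyocytes, read 1.21, 1.00 and 0.87 in control and -1.22, -0.28 and -0.43 in KO-labelled hearts. It fell by 1.67 ± 0.26 SE on the log2 scale (adjusted p = 0.00551). Ebi3 and Ctf1 passed under all 20 alternatives. Il27, the gene of the other IL-27 subunit, had a log2 difference of -0.59 ± 0.19 SE (adjusted p = 0.0482) and did not pass under 14 of 20. The remaining 4 genes, Il11, Ctf2, Clcf1 and Il31, were not well above background on every array of either group, with Il11, Ctf2 and Clcf1 above it on 3 of 6 arrays each and Il31 on 0. The median log2 difference of the 5 tested ligand genes was 0.29, the value of Cntf, against -0.12 for all genes tested.

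Il6ra, which encodes the receptor that IL-6 binds first, rose by a small amount with little spread. Its signal (NM_010559) was 2.14, 2.16 and 2.16 in control and 2.58, 2.65 and 2.63 in KO-labelled hearts. Each KO-labelled heart lay above each control, and hearts of 1 group spanned at most 0.07. The means were 2.15 ± 0.02 and 2.62 ± 0.04 (SD, n = 3 each), which is 1.38-fold. The rise was 0.46 ± 0.11 SE in log2 (adjusted p = 0.0167). It ranged from 0.45 to 0.74 over 20 alternatives and did not pass under 6. These included leaving out control replicate 1 (adjusted p = 0.0684), control replicate 3 (adjusted p = 0.0646) or KO-labelled replicate 3 (adjusted p = 0.0635), with differences of 0.45 to 0.47.

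The Il6ra upstream region is shown because it holds the core letters that hypoxia-inducible factors, the substrates of PHD2 and PHD3, bind in textbook sites. It lies at chr3:89913197-89913446 on the minus strand of GRCm38.p6 (RefSeq) and is written 5′ to 3′ toward the start site, with capitals for ACGTG on either strand.
Il6ra upstream: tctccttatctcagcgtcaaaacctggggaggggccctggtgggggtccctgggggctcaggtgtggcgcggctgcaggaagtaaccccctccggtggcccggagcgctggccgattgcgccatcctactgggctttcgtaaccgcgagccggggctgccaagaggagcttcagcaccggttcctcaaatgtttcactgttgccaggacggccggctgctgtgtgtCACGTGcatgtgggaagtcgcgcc
The motif ACGTG occurred on the plus-sense strand at bases 23 to 19 before the start and on the other strand at bases 24 to 20, in 1 overlapping palindrome. At least 1 match lay in 16.6% of all 32851 windows, and among the 11 windows of this family in that of Il6ra alone. The letters are common and are not a measured binding site, and any part of them in the rise of Il6ra was not tested.

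The LIF receptor gene Lifr fell by each of its 3 probes. Its brightest probe (NM_013584) read 2.30, 2.16 and 2.39 in control and 1.05, 1.83 and 1.34 in KO-labelled hearts. All KO-labelled hearts were lower, and they were further apart than the controls. The means were 2.28 ± 0.12 and 1.41 ± 0.40 (SD, n = 3 each), which is 1.83-fold. The log2 difference was thus -0.88 ± 0.21 SE (adjusted p = 0.0202). A second probe of the same accession had -0.93 ± 0.18 SE (adjusted p = 0.00930 over all probes), and a probe for another transcript, NM_001113386, had -0.37 ± 0.11 SE (adjusted p = 0.0392 over all probes). For that last probe the hearts read 0.26, 0.23 and 0.30 in control and -0.16, -0.12 and -0.02 in KO-labelled hearts. Over 20 alternatives the difference of the brightest probe ranged from -1.09 to -0.60 and did not pass under 7. With spike-in scaling it was -0.60 (adjusted p = 0.0709). It had an adjusted p of 0.0683 without control replicate 1, 0.0722 without control replicate 3 and 0.0619 without KO-labelled replicate 3, at -0.86, -0.82 and -0.84.

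Osmr, the gene of the oncostatin M receptor, did not pass. It read 2.16, 2.67 and 2.23 in control (NM_011019) and 3.29, 2.48 and 2.84 in KO-labelled hearts. KO-labelled replicate 1 was highest, and control replicate 2 lay above KO-labelled replicate 2. The log2 difference was 0.52 ± 0.24 SE (adjusted p = 0.134), with a 95% interval of -0.06 to 1.10. It was 0.68 without control replicate 2 (adjusted p = 0.0812) and 0.31 without KO-labelled replicate 1 (adjusted p = 0.311).

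The shared chain gene Il6st and the IL-11 receptor gene Il11ra1 differed little between groups. Il6st (NM_010560) read 4.02, 4.12 and 3.84 in control and 3.94, 3.69 and 3.77 in KO-labelled hearts. The groups overlapped, with a log2 difference of -0.19 ± 0.13 SE (95% interval -0.51 to 0.13, adjusted p = 0.283), which turned to 0.085 with spike-in scaling. Il11ra1 (NM_001172054) read 5.35, 5.80 and 5.89 in control and 5.54, 5.67 and 5.74 in KO-labelled hearts, and the controls spanned all KO-labelled values. Its log2 difference was -0.028 ± 0.17 SE (95% interval -0.44 to 0.38, adjusted p = 0.911), and it turned positive under 8 of 20 alternatives, 4 of them other scalings or background correction. Il11ra1 has near-identical copies in the mouse genome, and what share of this signal came from them is uncertain. No probe was matched to the copy Il11ra2.

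Of 2 further receptor genes that could be tested, Il27ra rose and Cntfr did not pass. Il27ra, the receptor of IL-27, read -2.97, -2.47 and -3.24 in control and -2.22, -1.85 and -2.04 in KO-labelled hearts, with all KO-labelled hearts higher. Its log2 difference was 0.86 ± 0.22 SE (adjusted p = 0.0243). That signal was near background, well above it on 2 of 3 control arrays, so Il27ra entered the test only through the KO-labelled group. The call was lost under 7 of 19 alternatives. With normexp the difference was 0.12 (adjusted p = 0.365). Cntfr, the receptor of ciliary neurotrophic factor, had -1.25 ± 0.51 SE (adjusted p = 0.0943). Il31ra was not well above background on any array.

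Stat3 itself, the transcription factor at the end of the pathway, had almost the same signal in both groups. Its brightest probe, printed in 10 spots (NM_213659), read 5.04, 4.79 and 5.03 in control and 5.05, 4.88 and 5.03 in KO-labelled hearts. Replicate 2 was lowest in each group, and the groups overlapped. The log2 difference was 0.036 ± 0.13 SE (adjusted p = 0.843), with a 95% interval of -0.27 to 0.34, and it was -0.047 without control replicate 2. The other Stat3 probe (NM_011486) had -0.04 ± 0.14 SE (adjusted p = 0.860 over all probes). Arrays measure transcript, so phosphorylated STAT3 was not measured here.

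Of 9 tested genes of Janus kinases and other STAT factors, Stat2 rose and Stat5a and Stat5b fell. Stat2, which acts in type I interferon signalling, read 2.29, 2.45 and 2.47 in control and 2.89, 3.00 and 2.88 in KO-labelled hearts (log2 difference 0.52 ± 0.12 SE, adjusted p = 0.0160). Stat5b, which transmits growth hormone and prolactin signals, had -0.75 ± 0.20 SE (adjusted p = 0.0256), and its close relative Stat5a had -0.68 ± 0.21 SE (adjusted p = 0.0442). Stat5a and Stat5b are near-identical genes, and cross-reading between their probes was not tested. Calls were lost for Stat2 under 5 of 20 alternatives, for Stat5b under 8 and for Stat5a under 11. The kinases on the family's receptors did not pass, with log2 differences of 0.13 for Jak1, -0.19 for Jak2 and 0.48 for Tyk2. The 33.3% of this list that passed is near the 38% of all genes tested, and its median was 0.13 against -0.12.

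Socs3, the feedback inhibitor that STAT3 switches on, did not pass with all 6 hearts. Its signal (NM_007707) was -0.36, 1.48 and -0.19 in control and 2.26, 0.67 and 1.60 in KO-labelled hearts. Control replicates 1 and 3 were low, and control replicate 2 lay above KO-labelled replicate 2. The means were 0.31 ± 1.02 and 1.51 ± 0.80 (SD, n = 3 each), with a log2 difference of 1.20 ± 0.59 SE (adjusted p = 0.147) and a 95% interval of -0.20 to 2.60. Control hearts spanned 1.84 and KO-labelled hearts 1.59. Socs3 passed under 2 of 20 alternatives, without control replicate 2 (log2 difference 1.78, adjusted p = 0.0320) and with array weights (1.69, adjusted p = 0.00216).

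The Socs3 upstream region is shown because STAT3 is its known activator. It lies at chr11:117969367-117969616 on the minus strand of GRCm38.p6 (RefSeq), written 5′ to 3′ toward the start site, with capitals for the STAT-type palindrome TTCNNNGAA.
Socs3 upstream: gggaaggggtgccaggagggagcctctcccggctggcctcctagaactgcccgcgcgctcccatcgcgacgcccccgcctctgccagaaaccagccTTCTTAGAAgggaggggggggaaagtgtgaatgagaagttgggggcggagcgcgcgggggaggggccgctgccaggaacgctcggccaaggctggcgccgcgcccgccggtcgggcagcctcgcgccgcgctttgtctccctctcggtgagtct
The match, TTCTTAGAA, spans bases 154 to 146 before the start. On both strands, which are the same letters for a palindrome, this motif lay in 7.02% of all 32851 windows, and among the 11 windows of this family in that of Socs3 alone. Here too a match is not a measured binding site.

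Among 19 other tested inhibitors and signal modifiers, 4 rose, 4 fell and 11 did not pass, with a median log2 difference of -0.16 against -0.12 for all genes tested. The 42.1% that passed is near the 38% of all genes tested and is no result about these genes as a list. The rises included Ptpn6, the blood cell phosphatase SHP-1 (1.67 ± 0.29 SE, adjusted p = 0.00767), Socs1, an inhibitor of Janus kinases (1.42 ± 0.27 SE, adjusted p = 0.00993), and Adam10, a sheddase (0.63 ± 0.12 SE, adjusted p = 0.00895). Socs1 read -1.93, -1.25 and -1.54 in control and -0.37, 0.36 and -0.45 in KO-labelled hearts, so unlike Socs3 its groups did not overlap. The falls were in Cish, an inhibitor downstream of STAT5 (-1.02), the adaptor gene Gab1 (-0.86), and Pias2 (-0.64) and Pias4 (-0.42) of the STAT-inhibitor family PIAS. Cish read 4.78, 4.71 and 5.25 in control and 3.48, 4.17 and 4.03 in KO-labelled hearts. The rises in Ptpn6 and Socs1 passed under all 20 alternatives, while Pias4 did not under 11, Pias2 under 8, Cish under 3, and Adam10 and Gab1 under 1 each. Socs1, Cish, Pias2 and Pias4 were named after their values were seen.

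**Figure D2:**
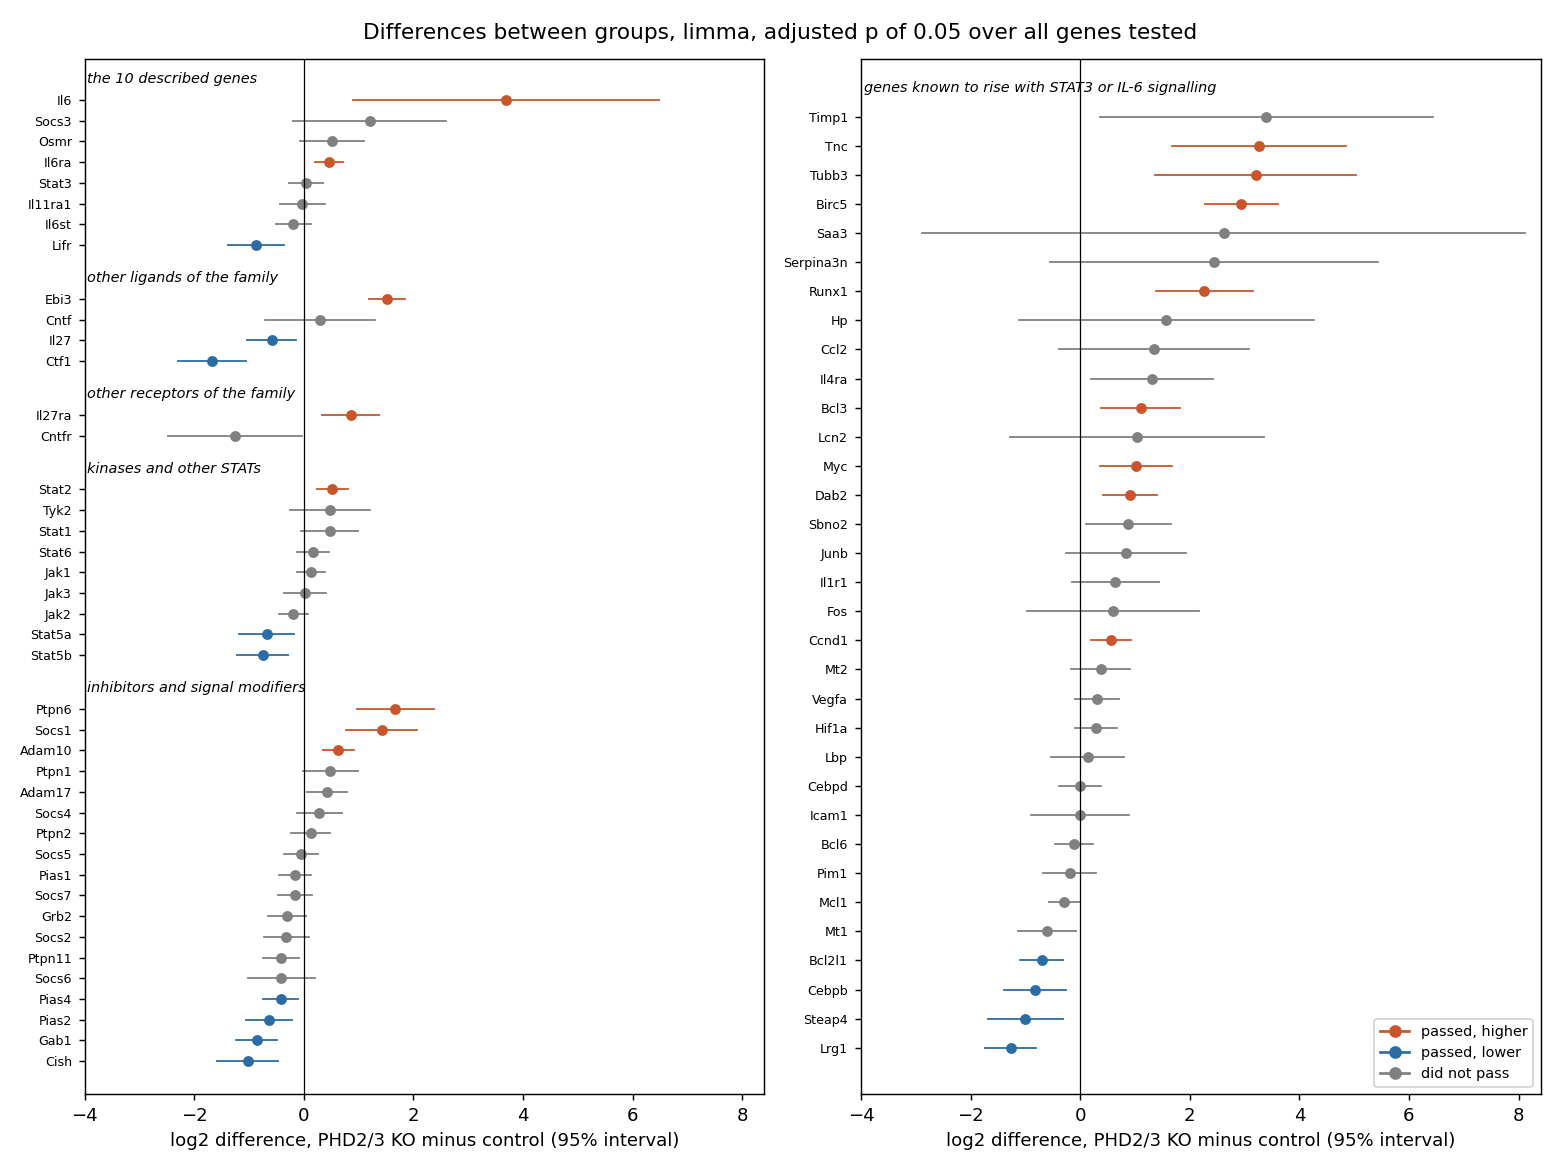
Log2 difference, KO-labelled minus control (horizontal axis), with its 95% interval for tested genes of the family and of the wider pathway, 3 hearts a group. Colours mark genes that passed higher or lower, and grey marks genes that did not. Genes of every role lie on both sides of 0, and Il6, Timp1, Saa3 and Serpina3n have the wide intervals of genes that vary between hearts.

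Genes known to rise with STAT3 or IL-6 family signalling moved in both directions. Of 33 tested, 8 rose, 4 fell and 21 did not pass, which is 36.4% passing against 38% of all genes tested, with a median log2 difference of 0.64 against -0.12. Birc5, the survival and cell division gene survivin, read 0.77, 1.82 and 1.05 in control and 4.34, 3.95 and 4.17 in KO-labelled hearts, a rise of 2.94 ± 0.28 SE (adjusted p = 0.00225). Tnc, which encodes the matrix protein tenascin C, rose by 3.27 ± 0.66 SE (adjusted p = 0.0118). However, it was well above background on only 1 of 3 control arrays, so the size rests on dim controls. Tnc entered the test only through the KO-labelled group, where it was higher. With control replicate 3 raised to the lowest signal well above background on its array, a setting chosen after seeing the data, its log2 difference was 2.65, and in the deposited value table it was 1.81. Runx1, a blood cell transcription factor gene, rose by 2.27 ± 0.37 SE (adjusted p = 0.00641). Further rises were in Tubb3 (3.20), Bcl3 (1.11), Myc (1.01), Dab2 (0.90) and Ccnd1 (0.56). With normexp the rises of Tnc and Runx1 were 1.07 and 1.19, and that of Myc was 0.50.

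The 4 members of that list that fell were Lrg1, a secreted glycoprotein gene (-1.27 ± 0.20 SE, adjusted p = 0.00543), Steap4, a metalloreductase gene (which fell by 1.00 ± 0.29 SE, adjusted p = 0.0340), the transcription factor gene Cebpb (-0.82 ± 0.24 SE, adjusted p = 0.0353) and the survival gene Bcl2l1 (-0.70 ± 0.16 SE, adjusted p = 0.0174). Lrg1 read 5.03, 4.70 and 5.11 in control and 3.79, 3.91 and 3.33 in KO-labelled hearts, with no overlap. Its fall passed under all 20 alternatives, whereas Steap4 and Cebpb did not pass under 10 each and Bcl2l1 under 5. Apart from Birc5, Lrg1, Runx1 and Tnc, the genes of this list were named after their values were seen. Counts in the 5 lists beside the 10 genes, 16 higher and 12 lower of 68 tested, made 41.2% passing against 38% of all genes tested. They depended on the scaling: spike-in scaling gave 18 higher and 3 lower. They also depended on single hearts, with 9 higher and 4 lower without control replicate 1, 9 and 3 without control replicate 3, and 6 lower without KO-labelled replicate 1 or 3.

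Much of the spread in Il6 and Socs3 lay between hearts of 1 group, and it was shared with response genes. Timp1, a protease inhibitor gene, read 0.44, 4.88 and 0.55 in control and 6.66, 4.12 and 5.29 in KO-labelled hearts. Serpina3n, an acute phase gene, read -2.39, 2.28 and -1.33 in control and 3.25, 0.54 and 2.11 in KO-labelled hearts. The monocyte chemokine gene Ccl2 read 0.13, 2.15 and 0.28 in control and 3.43, 1.16 and 2.00 in KO-labelled hearts. In all 3, as in Il6, Socs3 and Osmr, control replicate 2 was the highest control and lay above KO-labelled replicate 2, and KO-labelled replicate 1 was the highest of all. None of the 3 passed (log2 differences of 3.40, 2.45 and 1.34, adjusted p = 0.0748, 0.163 and 0.182). Without control replicate 2, Timp1 (4.86, adjusted p = 0.00823) and Serpina3n (3.82, adjusted p = 0.0195) passed and Ccl2 did not (1.99, adjusted p = 0.0604). Calls over all genes also rose without that heart, from 8432 to 9357. With any other single heart left out, none of the 3 passed in limma (adjusted p of 0.0731 to 0.430).

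Counted over the list, control replicate 2 was the highest control in 25 of 33 response genes, against 24.3% of all genes tested. KO-labelled replicate 1 was the highest of its group in 18 of the 33, against 37.5% of all genes, and in the same 18 control replicate 2 was the highest control. Both held together for 13.2% of all genes tested and for 4 of the 8 family genes, Il6, Il6st, Osmr and Socs3. These ranks depend on scaling. Over the other 4 scalings and normexp, control replicate 2 was the highest control in 24 to 31 of the 33 response genes and in 23.5% to 79.4% of all genes, with the highest figures from spike-in scaling. Over the same settings both held for 48.5% to 63.6% of the response genes and 14.2% to 46.5% of all genes, and for 4 to 6 of the 8 family genes. KO-labelled replicate 1 was the highest of its group in 36.6% to 54.5% of all genes. The pattern was noticed in these data and is a description.

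**Figure D3:**
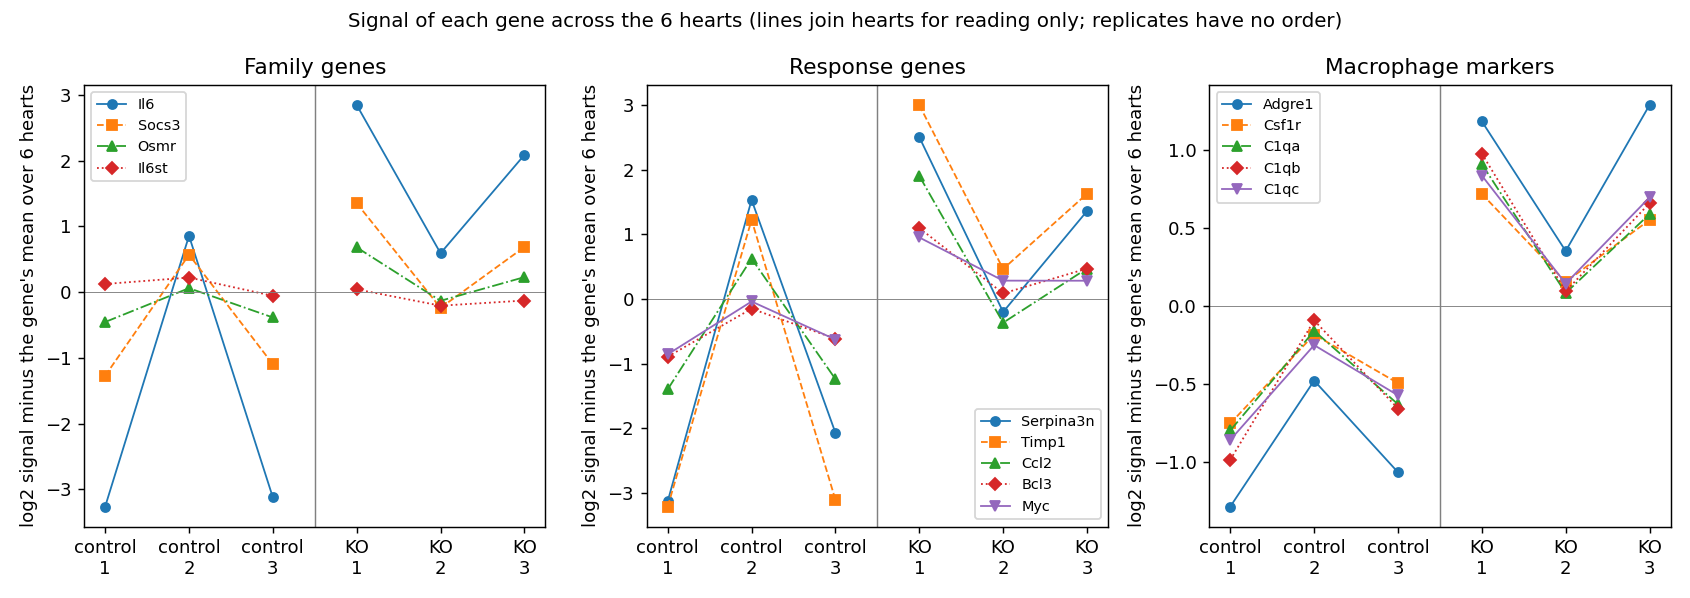
Log2 signal of each gene minus its mean over the 6 hearts (vertical axis) for 4 family genes, 5 response genes and 5 macrophage markers, by heart. Lines only join points of 1 gene within a group. Control replicate 2 and KO-labelled replicates 1 and 3 stand above the other hearts of their group in Il6, Socs3, Serpina3n, Timp1 and Ccl2, and control replicate 2 is the highest control for all 5 macrophage markers.

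Some markers of cell types differed between groups or followed the heart order of Il6 and Socs3, and their part in the results was not tested. Of the tested endothelial, erythroid and adipocyte markers, 0 passed. Of 8 measured macrophage markers, all well above background on all 6 arrays, 5 rose and Cd163 fell, and their summed signal, in multiples of the 75th percentile signal, was 88.4 to 141 in control and 170 to 279 in KO-labelled hearts. By heart it was 88.4, 141 and 105 in control and 279, 170 and 239 in KO-labelled hearts, and control replicate 2 was the highest control in 8 of 8 markers. Fibroblast markers rose in 5 of 8, with sums of 412 to 759 in control and 1005 to 1118 in KO-labelled hearts, and none of the 8 was below background on all arrays. The rise in the sums lay in the collagen genes Col1a1, Col1a2 and Col3a1 (log2 differences of 2.64, 2.02 and 2.16). Tcf21 (0.99) and Lum (0.89) rose less, and Pdgfra (0.33), Dcn (-0.23) and Dpt (-0.15) did not pass. Cardiomyocyte markers fell in 6 of 7, with sums of 7190 to 9802 and 5048 to 6033. The heart order was not particular to macrophage markers. Control replicate 2 was also the highest control in 8 of 8 fibroblast markers. It was the lowest control in 7 of 7 cardiomyocyte and 6 of 6 tested erythroid markers, against 59.2% of all genes tested. KO-labelled replicate 1 was the lowest of its group in 7 of 7 cardiomyocyte markers, against 40.6% of all genes tested. Of all genes tested, 15.4% rose and 22.6% fell. In whole hearts, fewer cells of a type and less RNA per cell cannot be told apart. Of 4 tested neutrophil markers 0 passed in limma, and 2 had an unadjusted p under 0.05, Elane and Csf3r, both with lower means in KO-labelled hearts. S100a8 read -2.37, -0.16 and -2.37 in control and 3.59, -0.57 and -0.39 in KO-labelled hearts (log2 difference 2.51). S100a9 read 0.20, 2.04 and -0.03 and 5.54, 1.48 and 2.06 (log2 difference 2.29). In both, as in Il6 and Socs3, control replicate 2 was the highest control and lay above KO-labelled replicate 2, and KO-labelled replicate 1 was the highest of all. Ngp was not well above background on any array. Neutrophil sums, 112 to 133 in control and 101 to 153 in KO-labelled hearts, were mostly Csf3r and do not show the order of S100a8 and S100a9. Adipocyte sums ran from 3.54 to 92.7 in control and from 3.09 to 244 in KO-labelled hearts, with control replicate 3 and KO-labelled replicate 2 highest, a different order from that of Il6 and Socs3. Erythroid sums were 2423 to 3753 and 2033 to 2525, smooth muscle and pericyte sums 145 to 156 and 171 to 277, endothelial sums 174 to 198 and 155 to 233, and lymphocyte sums 3.87 to 5.13 and 3.98 to 13.9.

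The genes most like Il6ra and Socs3 were found by the root mean square distance between log2 profiles over the 6 hearts, each centred on its own mean. For Il6ra, the gene with the smallest p of the 8, they were Ssrp1 (distance 0.0187), Aldh16a1 (0.0270) and Lin9 (0.0387), against a median distance of 0.394 over all named genes. Ssrp1, a subunit of a histone chaperone, read 3.84, 3.87 and 3.86 in control and 4.31, 4.35 and 4.38 in KO-labelled hearts. For Socs3 they were Lilr4b (0.0707), the chemokine gene Ccl7 (0.124) and Lyz2, the lysozyme gene of myeloid cells (0.163), against a median of 1.02. Lilr4b, an inhibitory receptor gene of myeloid cells, read -1.93, -0.18 and -1.77 in control and 0.79, -0.82 and -0.05 in KO-labelled hearts, and none of the 3 passed. Likeness over 6 hearts in 2 groups is a description.

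**Figure D4:**
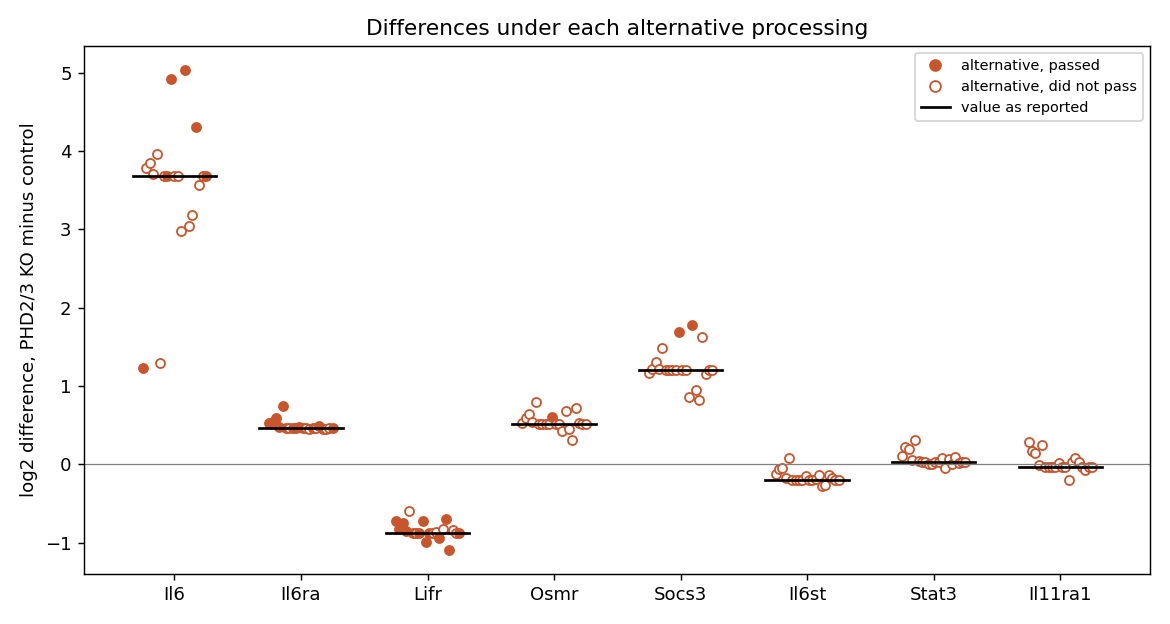
Log2 difference, KO-labelled minus control (vertical axis), of each tested family gene under each alternative processing, with the reported value as a black line. Filled points passed and open points did not. Il6ra and Lifr keep their direction with some calls lost, Il6 passes under 6 of 19 alternatives, and Socs3 passes under 2 of 20.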

How the data were processed

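The deposited scanner files give each spot's linear intensity. Per the file headers, the authors made it with background subtraction in Feature Extraction (11.0.1.1 in the submitters' processing notes). A deposited table of log2 values was used only as an alternative, since no source states how it was scaled.

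Log2 of the processed signal was taken without outlier spots, spots of a probe were averaged and each array's 75th percentile was subtracted. Of 55681 probes, 73 with no usable spot on an array were left out. Accessions named 26551 probes. Each gene was represented by its brightest probe and fitted with limma 3.58.1 in R 4.3.3 (2-sided, Benjamini-Hochberg). Only 3 arrays a group limit the precision. The fit was tested on simulated data with independent noise in each gene, whereas many genes here shared an order of hearts. That run checked the code and does not give the error rate in these data. With 3 hearts against 3, an exact permutation test cannot give a p below 0.1.

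Genes named were the 10 genes, Egln1, Egln3, up to 4 passing genes of smallest p per list (or the 2 of smallest p where fewer than 2 passed) and the 3 nearest profiles of Il6ra and Socs3. Any other gene was named after its values were seen. Of the genes this rule names, 2 are not reported here, though list counts and medians include them. The 10 genes and the lists were chosen with earlier results of these data known. Normexp used gMedianSignal, since the files have no mean signal column. The alternatives covered background correction, scaling, filters, probe choice, variance, the replicate block, threshold and single hearts.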

Additional observations from a re-analysis of the deposited data

How the results depend on the processing

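Il6ra was higher and Lifr lower in KO-labelled hearts under all 20 alternatives run, though not always past the threshold, and Il6 was higher under all 19 that gave it a value (it has none where all 6 arrays had to be above background). Calls over all genes, 8432 as reported, numbered 3769 without a filter on dim probes, 14786 with array weights, 5169 with the replicate block and 3212 at an adjusted p of 0.01. They ran from 4148 to 9357 when single hearts were left out. Of the 10 genes, the count higher, 2 as reported, was 1 with quantile, cyclic loess, median or spike-in scaling, the deposited table, all 6 arrays above background or trended variance, 0 without a filter, with the replicate block or at 0.01, 4 with array weights, and 0 to 3 without single hearts. The count lower, 1 as reported, was 0 with spike-in scaling, without a filter, with the replicate block and at 0.01, and 0 to 1 without single hearts. In the 5 further lists, the 16 higher were 8 without a filter, 31 with array weights, 10 with the replicate block, 8 at 0.01 and 9 to 20 without single hearts. Their 12 lower were 7 with cyclic loess, 3 with spike-in scaling, 3 without a filter, 20 with array weights, 5 with the replicate block, 3 at 0.01 and 3 to 11 without single hearts.

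Directions turned in 3 genes that had not passed. Il6st had 0.085 with spike-in scaling. Stat3 had -1.03e-04 with the mean of its probes and -0.047 to 0.089 without single hearts, below 0 without control replicate 2. Il11ra1 had 0.29 with normexp, 0.18 with quantile, 0.15 with cyclic loess and 0.25 with spike-in scaling, 0.022 with array weights, and -0.19 to 0.079 without single hearts. The cause was not tested. The labels state no pairing by replicate number. Deviations of same-numbered hearts from their group means had correlations of -0.15, -0.12 and -0.08 across genes. Deviations of 3 hearts sum to 0 within a group, so these values cannot exclude a pairing. Under the replicate block Il6 (adjusted p = 0.108), Il6ra (adjusted p = 0.0595) and Lifr (adjusted p = 0.0565) did not pass. A slide block could not be fitted with 1 slide. Collapsing unnamed probes by accession was chosen after seeing the data and gave 7815 calls. Signal near background limits Il6, Lif, Osm, Il27ra and Tnc.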
